A study of Mus musculus with 2 samples.

Results

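The adjacent genes Cd8a and Cd8b1 encode the alpha and beta chains of the T cell coreceptor CD8, and their locus was described here as open chromatin of mouse thymus. The genes were chosen with earlier results of these data known, and the bounds of the locus were set by position alone. It ran from 50 kb before Cd8b1 to 50 kb beyond Cd8a, at chr6:71272788-71429173 of mm10 (156.386 kb). It held 82 of the 97051 DNase I peaks of replicate 1 and 101 of the 108010 of replicate 2. It also held 243 of 276400 and 286 of 318156 footprints. DNase I cuts accessible DNA, so a peak is a stretch cut more often than its surroundings, and a footprint is a short run inside such DNA that is cut less often. The only group was thymus from 2 females of the strain B6CASTF1/J, a first-generation cross, at 14 days of age, with no treated, mutant or control sample. The labels number the samples as biological replicates 1 and 2. With 1 group there is no contrast, and every value below is a description with its value in each animal.

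CD8 is made of an alpha and a beta chain, or of 2 alpha chains. It binds major histocompatibility complex (MHC) class I molecules and brings the kinase Lck to the T cell receptor. Immature thymocytes carry neither CD4 nor CD8, then both at once, and then keep a single coreceptor after selection. Transcription of the pair of genes is known to depend on several separate enhancers before, between and inside them, which act at different stages and in different lineages. Tissue was measured whole, so a larger share of cells with open DNA and more cutting per cell cannot be told apart.

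Cd8b1 (ENSMUSG00000053044.8) lies at chr6:71322788-71337494 and Cd8a (ENSMUSG00000053977.13) at chr6:71373427-71379173, both on the plus strand. Their transcription start sites are 50639 bp apart, and 35932 bp separate the end of Cd8b1 from the start of Cd8a. Smyd1, a muscle methyltransferase gene on the minus strand, runs through the space before Cd8b1, and the minus-strand gene Rmnd5a enters the locus beyond Cd8a.

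Sequences are shown for the stretches before both start sites and for the 4 highest ranking distal peaks, since the results below turn on the promoters and on these peaks. The Cd8a peaks described below lie mostly past the start site, and the printed stretch holds only their upstream part. All are the mm10 reference on the plus strand and not the CAST alleles of the cross. Capitals mark matches to any of 13 short motif strings on either strand. The 300 bases before each start site contain no transcribed base of the gene.

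Cd8b1 upstream, chr6:71322488-71322787: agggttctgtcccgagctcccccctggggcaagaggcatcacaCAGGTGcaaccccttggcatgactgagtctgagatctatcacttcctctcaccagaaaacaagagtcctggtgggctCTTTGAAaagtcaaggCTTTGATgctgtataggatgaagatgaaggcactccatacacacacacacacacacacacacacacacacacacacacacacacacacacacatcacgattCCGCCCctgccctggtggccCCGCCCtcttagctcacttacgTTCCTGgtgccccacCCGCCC

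Cd8a upstream, chr6:71373127-71373426: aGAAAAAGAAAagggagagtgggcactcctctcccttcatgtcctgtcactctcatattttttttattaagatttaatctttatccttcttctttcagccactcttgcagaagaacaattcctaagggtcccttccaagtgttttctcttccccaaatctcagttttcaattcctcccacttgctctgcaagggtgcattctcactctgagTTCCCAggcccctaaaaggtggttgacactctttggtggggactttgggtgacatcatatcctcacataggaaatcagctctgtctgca

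Distal 1, chr6:71369461-71369740: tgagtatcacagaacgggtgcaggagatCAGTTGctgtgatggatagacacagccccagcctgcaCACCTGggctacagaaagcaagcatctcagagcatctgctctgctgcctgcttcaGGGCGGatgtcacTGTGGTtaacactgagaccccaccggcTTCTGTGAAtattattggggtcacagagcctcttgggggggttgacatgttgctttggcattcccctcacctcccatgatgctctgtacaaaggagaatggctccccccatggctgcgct

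Distal 2, chr6:71341281-71341500: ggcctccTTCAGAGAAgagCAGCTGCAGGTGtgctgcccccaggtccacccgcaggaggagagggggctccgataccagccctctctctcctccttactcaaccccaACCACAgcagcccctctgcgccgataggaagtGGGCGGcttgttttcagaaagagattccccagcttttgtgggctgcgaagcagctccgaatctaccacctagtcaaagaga

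Distal 3, chr6:71302441-71302660: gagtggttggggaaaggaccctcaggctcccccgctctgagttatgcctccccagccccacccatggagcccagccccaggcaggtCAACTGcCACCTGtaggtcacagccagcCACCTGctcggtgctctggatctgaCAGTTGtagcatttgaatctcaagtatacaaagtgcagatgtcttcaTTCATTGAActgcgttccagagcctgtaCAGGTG

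Distal 4, chr6:71353761-71353980: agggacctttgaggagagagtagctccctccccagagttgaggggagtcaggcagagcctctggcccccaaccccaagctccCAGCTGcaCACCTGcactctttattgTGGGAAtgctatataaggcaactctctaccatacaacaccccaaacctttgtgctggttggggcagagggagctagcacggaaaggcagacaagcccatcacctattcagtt

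The strings were TGTGGT or TGCGGT for RUNX factors, CAGGAA or CCGGAA for ETS factors, TTCAAAG or ATCAAAG for TCF-1 and LEF-1, AGATAA or TGATAA for GATA factors, and TGGGAA for Ikaros. E-boxes, bound by E proteins and other helix-loop-helix factors and, for CAGGTG, also by zinc finger factors, were searched as CAGCTG and as CAGGTG. The rest were TTCNNNGAA for STAT, CAACTG or CAACGG for MYB, TGANTCA for AP-1, GGGCGG for SP and KLF factors, and the IRF and CTCF consensus sequences. A match is a run of letters and not a shown site of binding.

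The Cd8b1 promoter was open in both animals, and its peak in each replicate covered the start site. The strength of a peak is the signal the authors deposited for it, and it was ranked as the percent of all peaks of the same replicate that are weaker. The peak at chr6:71322501-71322860 had a strength of 12.9 in replicate 1, above 96.9% of peaks. In replicate 2 the peak at chr6:71322641-71322880 had a strength of 5.06, above 94.7% of peaks. It was the strongest peak of the whole locus in replicate 2.

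The Cd8a promoter was open to a similar rank in replicate 1 and a lower rank in replicate 2. Its peak at chr6:71373361-71373560 had a strength of 12.6 in replicate 1, above 96.7% of peaks. The peak at chr6:71373281-71373700 had a strength of 3.59 in replicate 2, above 90.97% of peaks. Both peaks covered the start sites of both annotated Cd8a transcripts, at 71373427 and 71373553. Within 500 bp of these starts, replicate 1 alone had a further peak of 43 bp, at chr6:71373758-71373800, with a strength of 1.01. Over the whole gene, counted by midpoint, replicate 1 had 5 peaks and replicate 2 had 10.

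Among peaks within 500 bp of a start site, which are mostly strong, the coreceptor promoters ranked lower. The Cd8b1 peak exceeded 86.5% of them in replicate 1 and 75.2% in replicate 2, and the Cd8a peak 86.0% and 63.6%. Both promoters were poor in CpG. Over 1001 bp around the start site the observed to expected CpG ratio was 0.294 at Cd8b1 and 0.357 at Cd8a, beside a median of 0.558 over 21701 protein-coding genes, of which 32.2% and 36.8% had a lower ratio.

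The stretches upstream of the 2 starts held different footprints and strings. In the printed Cd8b1 stretch replicate 1 had 8 footprints reaching into it and replicate 2 had 6, and all 6 overlapped a footprint of replicate 1. A pair of TCF-1 and LEF-1 strings, CTTTGAA and CTTTGAT on the plus strand, lay in a footprint of 34 bp in replicate 1 (chr6:71322599-71322632), and a footprint of 21 bp in replicate 2 touched both. Of the 3 SP and KLF strings there, 2 overlapped footprints in both replicates. The printed Cd8a stretch had 1 footprint in each replicate, which did not overlap, and its only strings, for IRF and Ikaros, lay in neither. The whole Cd8a promoter peak held 3 footprints in each replicate, beside 8 and 5 in the Cd8b1 peak. Replicate 2 had a footprint of 25 bp past the Cd8a start, at chr6:71373563-71373587, which overlapped one of replicate 1. A second footprint of 34 bp before Cd8b1 in replicate 1 lay wholly in a run of AC repeats, and replicate 2 had one of 14 bp in it.

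The Smyd1 start sites away from Cd8b1 had no peak. None lay within 500 bp of the 3 start sites between 71262232 and 71262281 in either replicate. A peak of strength 1.41 in replicate 1 and of 1.20 in replicate 2, above 68.6% and 70.4% of peaks, covered the alternative Smyd1 start at 71322206 and lay next to that at 71322233. Both starts lie within 1000 bp of the Cd8b1 start on the opposite strand. The flanking genes were open at their own promoters, with strengths of 7.93 and 5.04 at Krcc1 and 25.5 and 8.86 at Rmnd5a, both of which lie outside the locus.

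**Figure D1:**
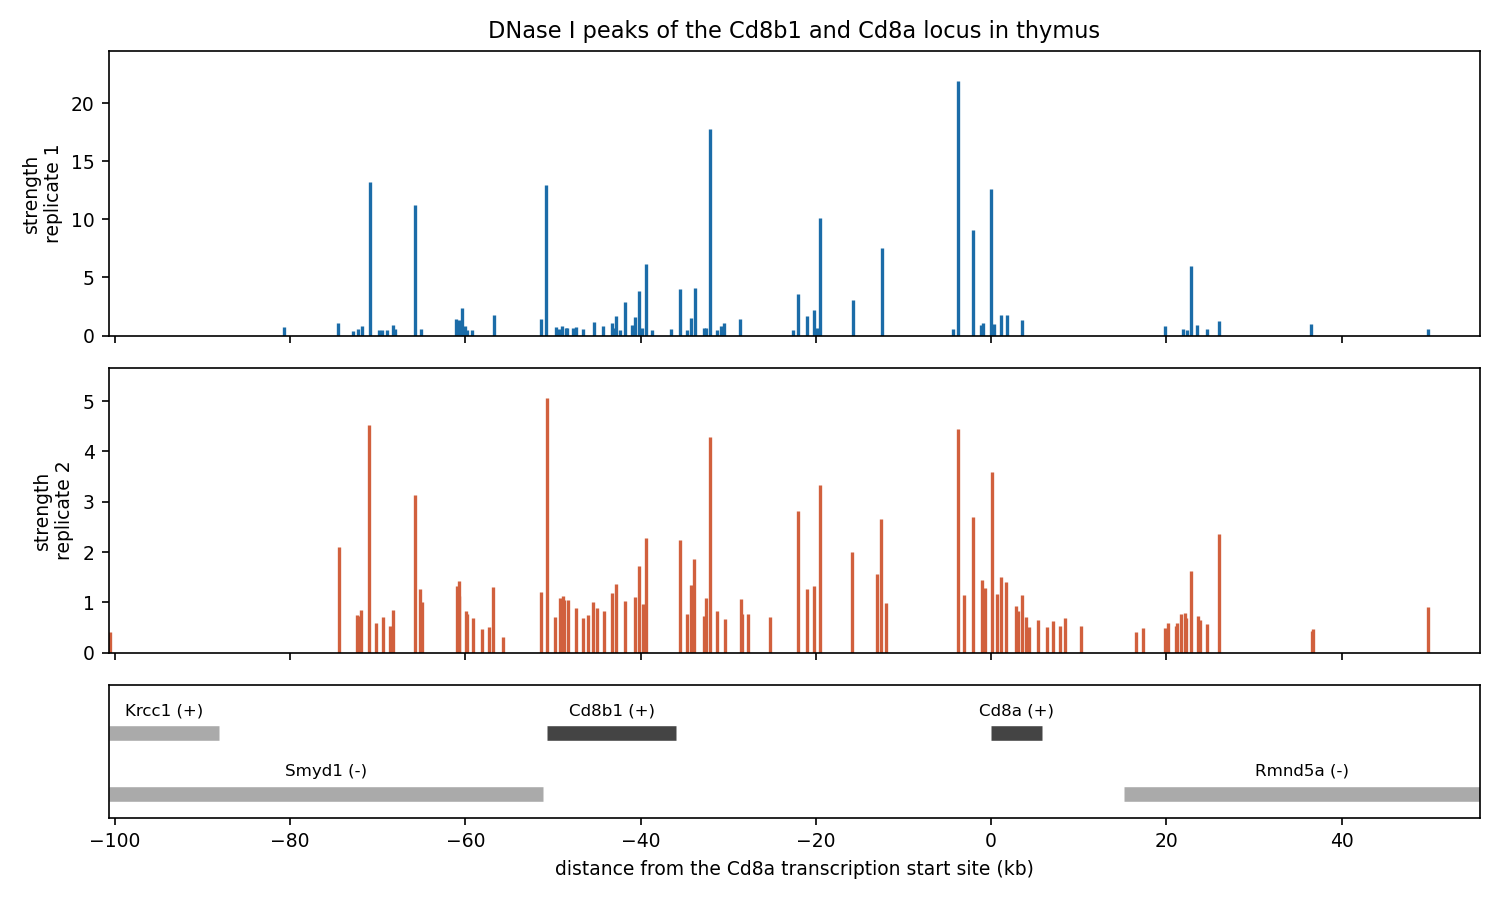
Strength of each peak (vertical axis, deposited signal, with a scale of its own in each replicate) against the distance of its midpoint from the Cd8a start site (kb) in replicate 1 (top) and replicate 2 (middle), with the genes and their strands below. The tallest line stands 3.8 kb before Cd8a in replicate 1, at 21.9, and at the Cd8b1 promoter in replicate 2, at 5.06.

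Distal peaks, over 500 bp from any protein-coding start site, made up 78 of 82 and 98 of 101 peaks, and 59 distal pairs were found in both replicates. The 12 pairs with the highest mean rank were named distal 1 to 12. Distal 1 lay 3826 bp before the Cd8a start, in an intron of the long noncoding RNA gene Gm44174, and had strengths of 21.9 (replicate 1) and 4.44 (replicate 2). It was stronger than either coreceptor promoter in replicate 1 and behind the Cd8b1 promoter and distal 3 in replicate 2. Distal 2 lay between the genes, 32.0 kb before Cd8a and close behind the end of Cd8b1, with strengths of 17.8 and 4.30. Distal 3 lay in an exon of Gm1070 inside an intron of Smyd1, 70.9 kb before Cd8a and 20237 bp before Cd8b1, with strengths of 13.2 and 4.53.

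The next ranks filled the space between the genes and the flank before Cd8b1. Distal 4, in an intron of Gm44174 at 19.6 kb before Cd8a, had strengths of 10.1 and 3.33. Distal 5, in an intron of Smyd1 at 65.7 kb before Cd8a, had 11.3 and 3.13. Distal 6, only 2126 bp before the Cd8a start, had 9.09 and 2.69. Distal 7, in an exon of Gm44175 at 12.5 kb before Cd8a, had 7.57 and 2.65. These 7 peaks exceeded between 93.2% and 99.1% of peaks in replicate 1 and between 86.9% and 93.6% in replicate 2.

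Of the remaining 5, a single one lay inside a coreceptor gene and a single one beyond Cd8a. Distal 8, in an exon of Cd8b1 at chr6:71333961-71334160, had strengths of 6.16 and 2.27. Distal 9, between the genes, had 3.55 and 2.81 and was the only one of the 12 with a higher rank in replicate 2. Distal 10 and distal 12, behind the end of Cd8b1, had 3.98 and 2.24, and 4.13 and 1.86. Distal 11, in an intron of Rmnd5a 22.8 kb beyond the Cd8a start, had 5.96 and 1.62. It had the widest spread of ranks, at 91.2% in replicate 1 and 77.7% in replicate 2.

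**Figure D2:**
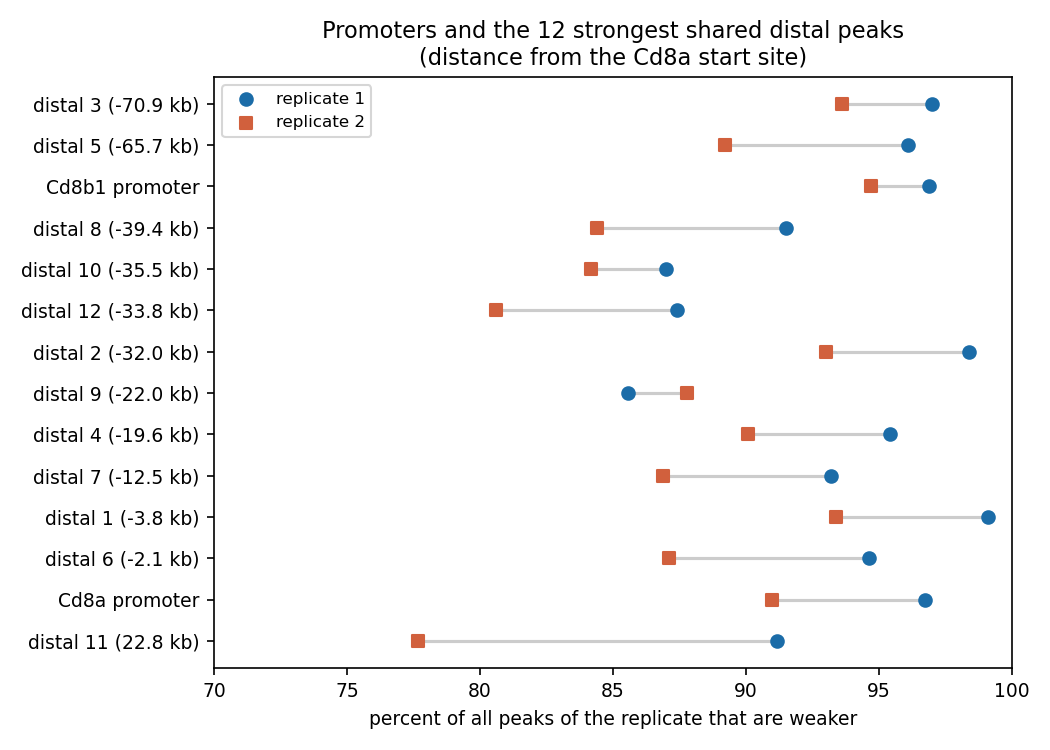
Rank of the 2 coreceptor promoters and the 12 named distal peaks (horizontal axis, percent of all peaks of the replicate that are weaker; vertical axis, peaks ordered from the Cd8b1 side to beyond Cd8a, with the distance from the Cd8a start in kb), with circles for replicate 1 and squares for replicate 2. Every one except distal 9 ranked higher in replicate 1, and distal 11 spread the most, from 77.7% to 91.2%.

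The E-box string CAGGTG was found in all 12 named distal peaks, in the 200 bp around the midpoint in replicate 1. The same held for 32.2% of the 6006 distal pairs of the genome with a mean rank at least as high as that of distal 12. Around the midpoint in replicate 2 it was found in 11 of 12, beside 30.0% of those pairs. Among the other 47 shared distal pairs of the locus, 10 held it (21.3%). The string is 1 of 13 searched and was singled out after its values were seen. The share was 75.0% over the 20 highest ranking distal peaks and 53.3% over the highest 30.

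The matches are shown with 10 bases to each side, in the direction that reads CAGGTG in capitals, where they overlapped a footprint of each replicate by at least 1 base.

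Distal 1, chr6:71369516-71369541, minus strand: ttctgtagccCAGGTGtgcaggctgg

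Distal 8, chr6:71334077-71334102, plus strand: tctgctcttcCAGGTGtgcggaggag

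Distal 9, chr6:71351386-71351411, minus strand: tgggtgccacCAGGTGgtgggtggcc

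Distal 11, chr6:71396322-71396347, plus strand: aatctgtgtgCAGGTGtggtaaaaaa

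The named peaks held 15 such matches in all, 7 on the plus strand and 8 on the minus strand, with a median distance of 30 bp from the midpoint. Of these, 9 overlapped a footprint of replicate 1 by at least 1 base and 4 one of replicate 2, and the 4 were among the 9. In distal 2 the string directly follows CAGCTG, and in distal 4 both strings lie 2 bases apart. The E-box CAGCTG was found in 6 of 12 (24.8% of the equally ranked pairs of the genome) and a RUNX string in 5 of 12 (24.8%). Neither searched ETS string, CAGGAA or CCGGAA, was found in any of the 12, beside 39.5% of the equally ranked pairs. Of the other 47 of the locus, 11 held one. Other runs that end in GGAA, such as taggaa in the printed distal 2, were not counted, so ETS sites of other sequence would be missed.

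**Figure D3:**
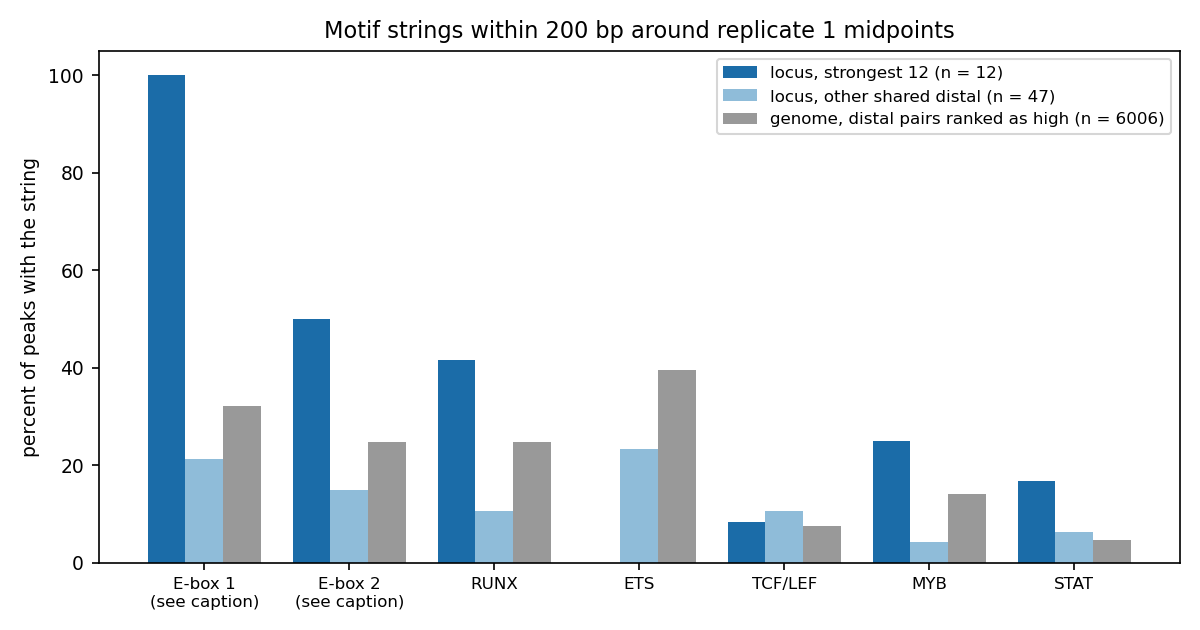
Percent of distal peaks found in both replicates that hold each motif string within 200 bp around the replicate 1 midpoint, for the 12 named peaks, the other 47 of the locus and the 6006 of the genome that rank as high (E-box 1 is CAGGTG and E-box 2 is CAGCTG). The first bar reaches 100% beside 32.2% in the genome. The ETS bar, which counts CAGGAA and CCGGAA only, is 0 for the 12.

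Over all peaks of the locus, whatever their strength, CAGGTG was in 28.0% of those of replicate 1 and 24.8% of those of replicate 2, beside 26.1% and 21.7% of all peaks. CAGCTG was in 19.5% and 21.8%, beside 18.98% and 15.5%. RUNX strings, of interest because RUNX factors bind known Cd8 enhancers, were in 20.7% and 18.8%, beside 23.0% and 21.1%. ETS strings and SP and KLF strings had lower shares in the locus than over all peaks, which include those near start sites. ETS strings were in 18.3% and 25.7% of its peaks, beside 35.5% and 32.0%, and SP and KLF strings in 6.10% and 3.96%, beside 20.3% and 17.0%. Over all distal pairs of the genome, 36.5% held an ETS string around the replicate 1 midpoint. The CTCF consensus was in 1 peak of each replicate (1.22% and 0.990%), beside 7.29% and 8.31%.

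Joined across gaps of at most 1000 bp, the peaks formed 20 clusters, of which 15 had peaks in both replicates. They were numbered from the Cd8b1 side. Cluster 5, chr6:71321821-71334826, held the Cd8b1 promoter and most of the gene, with 23 peaks in replicate 1 and 20 in replicate 2. Cluster 11, chr6:71369026-71382052, ran from distal 1 through the Cd8a promoter past the end of the gene, with 10 and 19 peaks. These 2 clusters, each 13.0 kb long, held 20.1% and 24.8% of the summed strength of the locus in replicate 1, and 20.9% and 20.7% in replicate 2.

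The third by strength was cluster 6, chr6:71336899-71343080, which covers the end of Cd8b1 with distal 2, 10 and 12 and held 15.3% and 11.1% of the strength. Cluster 2, before Cd8b1 at chr6:71300542-71305515, held distal 3 and 8.58% and 7.63%. Cluster 8, between the genes at chr6:71350781-71354040, held distal 4 and 9 and 8.93% and 7.01%. The remaining clusters held between 0.263% and 5.64% of the strength in replicate 1 and between 0.716% and 7.04% in replicate 2.

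By gene boundaries, the largest part of the summed strength lay in the 35932 bp between the genes, which held 24 and 26 peaks and 45.8% and 35.4% of the summed strength. The flank before Cd8b1 held 22 and 25 peaks and 26.1% and 26.0%. The Cd8a gene held 8.81% and 9.97% in 5747 bp, which is more per base than between the genes in both replicates. Peaks stood closest inside Cd8b1 in replicate 1, with 14.96 per 10 kb, and inside Cd8a in replicate 2, with 17.4 per 10 kb. Peaks that overlap each other within a replicate count separately here. The flank beyond Cd8a differed most between the animals, with 9 peaks in replicate 1 and 22 in replicate 2. All 9 of those of replicate 1 had a partner in replicate 2, and 9 of the 22 had one in replicate 1. The longest stretch without a peak in either replicate was 19795 bp, at chr6:71272881-71292675 across the end of Krcc1.

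Peaks were dense in the locus in both animals. They covered 10.5% and 18.1% of its bases, beside 0.681% and 0.888% of the genome, and there were 52.4 and 64.6 per 100 kb, beside 3.56 and 3.96. Some peaks overlap another peak of their own list, 4 of 82 in replicate 1 and 21 of 101 in replicate 2. Joined where they overlap or touch, the peaks formed 79 and 87 separate blocks. Counts, densities and summed strengths take each such peak separately, in the locus and over the genome. Of 16830 windows as long as the locus, 2 (0.0119%) held as many replicate 1 peaks or more, and 1 (0.00594%) held as many replicate 2 peaks or more, with medians of 2 and 3 peaks. In replicate 1, a window over Ly6a and neighbouring Ly6 genes on chromosome 15 held 98 peaks. The other, on chromosome 17, held 95 peaks. It lay over Tap1, Tap2 and Psmb8, which serve MHC class I peptide loading, and over MHC class II genes such as H2-Oa and H2-DMa. The window of replicate 2 lay over Tcf7, the gene of TCF-1, on chromosome 11 (106 peaks).

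Counted as distal peaks per 100 kb over the gene and its flanks of 50 kb, Cd8b1 had 60.2 in replicate 1 and 70.6 in replicate 2, and Cd8a 54.8 and 70.9. By the mean of both replicates they ranked 1 and 2 of 21701 genes, whose median was 4.92, and they share most of these peaks. The closest genes elsewhere were Tcf7, with 34.4 and 66.6, Tap2, with 69.2 and 31.0, and Psmb8, with 70.4 and 28.9. The order of these 5 genes is not stable between animals, since Tap2 and Psmb8 exceeded both coreceptor genes in replicate 1. In replicate 1 alone Cd8b1 ranked 7 and Cd8a 10, and in replicate 2 alone 2 and 1.

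Sharing of the locus peaks between the replicates depended on their strength. In replicate 1, 67 of 82 peaks (81.7%) overlapped a peak of the other replicate, beside 75.2% of all peaks, and in replicate 2, 65 of 101 (64.4%), beside 66.4%. All 11 locus peaks of replicate 1 and all 6 of replicate 2 in the strongest 10% of their list were shared, beside 98.9% and 99.3% of such peaks of the genome. Those 11 and 6 peaks held 61.4% and 20.3% of the summed strength of the locus. Between the median and the strongest 10%, 34 of 38 peaks were shared in replicate 1 (89.5%, beside 91.3%) and 56 of 74 in replicate 2 (75.7%, beside 91.4%). Of the peaks weaker than the median of their list, 22 of 33 were shared in replicate 1 (66.7%, beside 57.7% over the genome) and 3 of 21 in replicate 2 (14.3%, beside 39.9%).

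Few peaks without a partner had a trace in the other animal's false discovery rate track, which lists only bases under 0.05. Of the 15 such peaks of replicate 1, 4 held a listed base of replicate 2 (26.7%, beside 29.0% over the genome), and of the 36 of replicate 2, 4 held one of replicate 1 (11.1%, beside 9.99%). Peaks of replicate 2 were also wider, with a median of 300 bp in the locus beside 200 bp in replicate 1, and 26 of 101 exceeded 400 bp, beside 3 of 82. That is 25.7% and 3.66% of the locus peaks, beside 10.1% and 2.78% of all peaks.

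Strong distal peaks of the locus were relatively stronger in replicate 1. Over 44 locus peaks paired singly between the replicates, strengths had a Spearman correlation of 0.895 (0.827 over 64454 pairs of the genome), where the points share 2 libraries and no p is given. The log2 ratio of replicate 1 to replicate 2 was then taken minus its genome median of 0.25. Of the distal pairs with a mean rank of 80% or more, 13 of 13 had a ratio above 0, beside 55.9% of 8539 pairs of the genome. Their median was 1.30, with a range from 0.09 to 2.05, beside 0.28 in the genome. None of the 13 holds the CTCF consensus, and of the 6993 such pairs of the genome without it, 65.9% had a ratio above 0, with a median of 0.62. The ratio was 1.57 at the Cd8a promoter, 1.11 at the Cd8b1 promoter and -0.02 at the peak of the alternative Smyd1 starts. The median over 13377 pairs of the genome near start sites was 0.31. Among the 10 weakest pairs, with a mean rank under 50%, the median was -0.68, beside -0.16. With 1 library per animal, animal and library cannot be told apart.

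**Figure D4:**
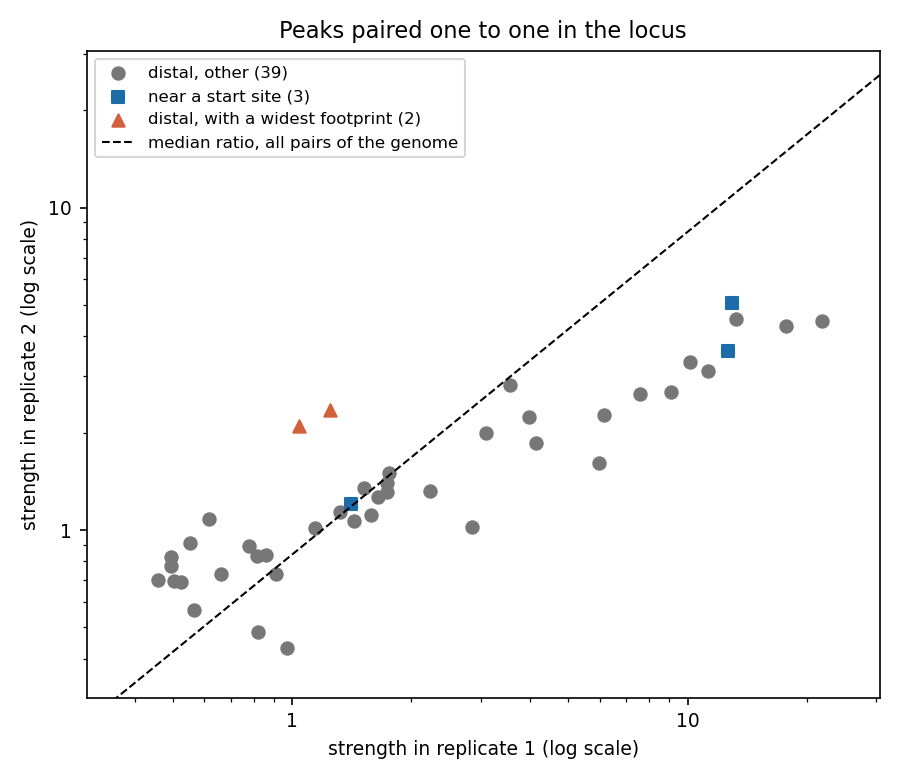
Strength in replicate 1 (horizontal) and replicate 2 (vertical), both on log scales, of the 44 locus peaks paired singly, with squares for peaks near a start site, triangles for the 2 distal peaks with the widest footprints and a dashed line at the median ratio of all pairs of the genome. Points at the strong end lie below the line, and both triangles lie above it.

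Of the 44 pairs, 25 had a ratio above 0. The 2 lowest ratios belonged to peaks that each form a cluster alone, on opposite flanks of the genes. The peak at chr6:71298841-71299060, which forms cluster 1 at 74.5 kb before Cd8a, had strengths of 1.04 and 2.10 in replicates 1 and 2, a centred log2 ratio of -1.26. It is the only peak of the locus with the CTCF consensus, and the consensus lay in a footprint of both replicates. Distal pairs with that consensus had a median ratio of -1.01 over the genome, with 6.26% of 6346 above 0, beside 0.02 for those without. The peak at chr6:71399281-71399500, cluster 13 at 26.0 kb beyond the Cd8a start, had 1.25 and 2.36, a ratio of -1.17. It has no exact match to the CTCF consensus. Cluster 15, beyond Cd8a and also a single peak in each replicate, had 0.551 and 0.910, a ratio of -0.975. Cluster 9, between the genes and likewise a single peak in each replicate, went the other way, with 3.09 and 2.00, a ratio of 0.372.

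The same 2 peaks held the widest footprints of the locus. They are printed from replicate 1, with motif strings in capitals.

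Cluster 1 footprint, chr6:71298926-71298967: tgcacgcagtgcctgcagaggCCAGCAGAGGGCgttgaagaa

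Cluster 13 footprint, chr6:71399376-71399420: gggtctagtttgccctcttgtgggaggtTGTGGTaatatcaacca

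The footprint in cluster 1 spanned 42 bp in replicate 1 and 27 bp in replicate 2, and its capitals mark the CTCF consensus. The footprint in cluster 13 spanned 45 bp and 47 bp, and its capitals mark a RUNX string. Near matches to the CTCF consensus were not searched. The run gccctcttgtgg in this footprint comes close to that consensus on the minus strand, so the capitals do not tell which factor may lie there. The second CTCF consensus of the locus, at chr6:71421293-71421304, lay in no peak and no footprint of either replicate.

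Footprints of the locus numbered 243 and 286, with a median width of 10 bp and 8 bp. There were 2.63 and 2.78 per peak, beside 2.40 and 2.55 over all peaks, but the difference was not held at like strength. Peaks under the median had 1.55 and 1.33, beside 1.44 and 1.28. Those between the median and the strongest 10% had 2.89 and 3.03, beside 3.01 and 3.41. The strongest 10% had 5.00 and 4.83, beside 4.78 and 5.48. The share of footprints found in both replicates was lower in the locus than over the genome, also in strong peaks. In replicate 1, 80 of 243 (32.9%) overlapped a footprint of the other replicate, beside 50.8% over the genome, and in replicate 2, 85 of 286 (29.7%), beside 45.5%. In the strongest 10% of peaks, 27 of 55 were shared in replicate 1 (49.1%, beside 76.9%) and 22 of 29 in replicate 2 (75.9%, beside 81.3%).

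With 5 bp added to each side, footprints of replicate 1 held CAGGTG in 14 of 243 cases (5.76%, beside 2.77% of all footprints). In replicate 2 the count was 6 of 286 (2.10%, beside 2.07%), so the difference from the genome was seen in a single animal. RUNX strings were in 2.47% and 3.15%, beside 2.95% and 2.25%, and stood on opposite sides of the genome's share in the 2 animals.

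Promoters of genes that act on or with CD8 were open throughout, where a peak within 500 bp of any start site counted as open. A list of 26 regulators of the CD4 and CD8 fate or of Cd8 transcription had 26 open in both replicates, and a list of 11 partners of the coreceptor had 11, beside 58.6% of all genes. Of the 26 regulators, 23 were open within 200 bp and 22 at the outermost start site alone. The list holds widely expressed chromatin factors, and the 6 highest promoter ranks over both lists belonged to Smarca4, a remodeller ATPase (27.7 and 14.5), Cbfb, the partner of RUNX proteins (21.5 and 7.52), Dnmt1, the maintenance DNA methyltransferase (16.6 and 8.75), Ets1, a lymphoid ETS factor (14.9 and 9.54), Hdac1, a histone deacetylase (20.5 and 6.81), and the MHC class I gene H2-D1 (11.8 and 8.88). All of these exceeded both coreceptor promoters in replicate 2. The labelled tissue matched its markers, with 10 of 10 thymocyte promoters open, among them Cd4 at 3.33 and 1.63. Markers of other cells were open in both replicates in 0 of 4 cases for B cells, 1 of 4 for myeloid cells, 1 of 4 for thymic epithelium, 2 of 3 for endothelium, 0 of 3 for erythroid cells, 1 of 3 for natural killer cells, 0 of 2 for hepatocytes and 1 of 4 for striated muscle. The muscle marker was Actn2, with 5.16 and 2.06. The part of such cells in the values of the locus was not tested.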

How the data were processed

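DNase-seq of thymus was analysed in 2 samples of 1 group. The labels number the animals differently but list 1 donor identifier for both, and they were taken as 2 animals. Per the labels, the authors used mm10. Per the listing deposited with each sample, peaks, footprints and tracks were made from that sample's own alignments, so nothing was pooled. Aligner, callers, depth and handling of CAST reads were not given in the sources used here. As strength, the deposited peak signal was used. In each replicate every signal value was a whole multiple of a step, 0.00519 in replicate 1 and 0.00576 in the other, within a tolerance of 0.05 steps. What set the step is unknown, so strengths were ranked within a replicate. The track's p-value column, as deposited, holds false discovery rates and lists only those under 0.05. In the footprint lists that column is constant at 0.01 and was left unused.

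The longer peak list was used, and the shorter one as a stricter alternative. Peaks that overlap others of the same list were kept and counted separately. Genes and start sites came from GENCODE M21 (basic set), and sequence from GRCm38.p6, within whose chromosomes every peak and footprint ended. Overlap needed 1 bp. Distal peaks had a midpoint over 500 bp from any protein-coding start site. Clusters joined peaks at gaps of at most 1000 bp. Motifs were searched in 200 bp around midpoints. No test was made, because 2 animals of 1 group give no contrast and peaks are not replicates. Scripts were tested on simulated data and used Python 3.11.15, numpy 2.4.6, pandas 2.3.3, scipy 1.17.1 and pysam 0.24.0.

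Named peaks were those at start sites of Cd8a, Cd8b1 and Smyd1 and the 12 shared distal peaks with the highest mean rank. Named genes were the 6 regulators or partners with the highest promoter rank and the 3 genes nearest to each member in distal density, leaving out genes within 500 kb. Members and lists were chosen with earlier results of these data known. Alternatives changed the peak list, flanks, overlap, cluster gap, window, tiling and reference set of ranks, and left out each replicate.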

Additional observations from a re-analysis of the deposited data

How the results depend on the processing

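Of 80 alternatives over 15 results, 54 stayed within the spread between the animals or within 1.5 times the count, and 26 moved. Most of these results are counts, shares or ranks without a direction. The order of the 2 genes in density, Cd8b1 before Cd8a, turned without replicate 1. With the stricter peak list the mean number of locus peaks was 54.5 in place of 91.5, the Cd8b1 rank 93.7% in place of 95.8%, the RUNX share 18.3% in place of 19.8%, the density ranks 10 for Cd8a and 6 for Cd8b1, and the mean number of windows as dense 4 in place of 1.5. Moving the tiling by 50 kb gave 0.5 windows. With a reciprocal overlap of 50%, shared peaks made up 39.8% in place of 73.0% and shared footprints 21.7% in place of 31.3%, which was 35.9% with flanks of 100 kb. A cluster gap of 500 bp gave 29 clusters in place of 15. Among peaks near start sites the mean rank was 74.8% for Cd8a, in place of 93.9%, and 80.9% for Cd8b1. With 20 kb to each side Cd8a ranked 9 in density. Leaving out 1 replicate moved the density rank of Cd8a between 1 and 10 and that of Cd8b1 between 2 and 7, with the lower place in replicate 1 alone. Windows of 100 bp and 300 bp gave RUNX shares of 13.1% and 29.6% and ETS shares of 11.8% and 30.9%, in place of 22.0%. The share of named distal peaks with CAGGTG, whose alternatives were chosen after seeing the data, was 100% and became 66.7% in 100 bp, 91.7% around the replicate 2 midpoint, 75.0% over the highest 20 and 53.3% over the highest 30. Results that need both replicates have no value without one. No paired analysis was possible because there is 1 group. The depth is unknown, so weak peaks found in 1 animal cannot be told apart from peaks missed in the other.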

Other observations

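Among the 26 regulators, the promoters with the lowest mean ranks, named after their values were seen, were those of Il7r, Zbtb7b and Tox. Il7r, the interleukin 7 receptor gene, had strengths of 1.21 and 0.628. Zbtb7b, which encodes the CD4 lineage factor ThPOK, had 2.42 and 0.829, and Tox, needed for the CD4 lineage, had 1.14 and 1.59. Runx3, the gene of a RUNX factor of the CD8 lineage, stood higher, with 6.72 and 2.34, and Cd4 had 3.33 and 1.63. All of them lay below the Cd8b1 and Cd8a promoters in both replicates.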
